A study of Homo sapiens with 11 samples.

Results

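Peaks that the authors' annotation places in protein-coding sequence (CDS) made up 2289 of the 67083 ZFP36L2 eCLIP peaks called over input in 2 leukaemia lines. They were taken as every peak whose deposited region is CDS, with no threshold beyond the one the authors applied to all peaks. MOLM13 gave 529 such peaks in replicate 1 and 579 in replicate 2, and THP1 gave 586 in replicate 1 and 595 in replicate 2. Both are established human acute monocytic leukaemia lines, and the labels give no genotype change or drug treatment for either. Each line had 2 immunoprecipitates made with an antibody to ZFP36L2 and 2 made with control IgG, with 2 size-matched inputs for MOLM13 and 1 for THP1, 11 libraries in all. In eCLIP, ultraviolet light joins protein to RNA, the protein is pulled down and the attached RNA fragments are sequenced. The labels do not say whether the replicates of a line were grown as separate cultures, and their spread may be technical.

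ZFP36L2 is a zinc finger protein of the TIS11 family, which also holds ZFP36 and ZFP36L1. These proteins are known for gripping AU-rich elements, stretches built on the pentamer AUUUA, in the 3′ UTR of mRNAs, and for recruiting deadenylases that shorten the poly(A) tail and hasten decay. Coding sequence is swept by translating ribosomes and is not the region the family is known for, so the CDS peaks are described here beside the 3′ UTR peaks of the same libraries. A fold below is the log2 ratio of the immunoprecipitate over input unless IgG is named, and every listed peak has a log2 fold and a −log10 p of at least 3. Positions are 1-based on hg38.

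Sequence could be read for the few CDS peaks that reach into a RefSeq promoter window, the 250 bases before and 50 after a gene's start on GRCh38.p14. In all, 26 CDS peaks on 14 genes shared at least 10 bases with such a window, and the shared part held the DNA form of the pentamer, ATTTA, on the strand of the transcript in 3 of the 14 genes (ALG11, H2BC7 and CPSF3). It was not found in the 4 genes with such a peak below IgG (CERT1, FGF2, KAT2B and RBPJ), for RBPJ over as many as 188 bases. Nor was it found in COX10, H2BC5, H2BC8, H4C5, MANF, MCOLN1 and SNRPE, whose matched values lay above IgG. At the RBPJ positions 11.3% of all promoter windows held ATTTA, and fewer did at those of the other 3 genes below IgG. Its absence is thus the usual outcome and does not set the genes below IgG apart. The 5 stretches below set peaks that hold the pentamer beside peaks that do not. They come from every gene with such a peak in at least 3 libraries, and from CERT1. CERT1, in 2 libraries, was added by choice as a peak below IgG, while H4C5, also in 2 libraries, is not shown. Each stretch is the part common to the libraries named, at most 30 bases, in lower case with ATTTA in capitals.
ALG11, chr13:52024441-52024470, plus strand, all 4 libraries: ctATTTAtttgcttttATTTAtggacttgt
H2BC7, chr6:26199547-26199562, plus strand, all 4 libraries: tgtttATTTAtcatgc
H2BC5, chr6:26158152-26158171, plus strand, 3 libraries: ctaactattaacgctacgat
MCOLN1, chr19:7533914-7533925, plus strand, 3 libraries: ggcctggacctt
CERT1, chr5:75511757-75511767, minus strand, 2 libraries: gagccggaggt
Among all 35116 promoter windows, the same positions as the ALG11 stretch held ATTTA in 2.79% and those of the H2BC7 stretch in 0.689%. A pentamer is a match of letters and not a measured contact.

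ALG11 is a mannosyltransferase of protein N-glycosylation, and its stretch lies before the start of UTP14C, a gene nested at the 3′ end of ALG11. The ALG11 peak had log2 folds of 4.40 and 3.87 in MOLM13 against 4.78 and 4.13 in THP1, and folds over IgG of 5.0 and 2.10 in MOLM13 and 3.54 and 2.55 in THP1. H2BC7 encodes a replication-dependent histone H2B, and its peak had folds of 5.47 and 5.57 in MOLM13 and 5.63 and 5.08 in THP1. Over IgG the H2BC7 peak had 4.39 and 4.51 in MOLM13 against 4.22 and 6.30 in THP1, past the threshold in every library. Histone H2B genes are near copies of each other, so reads of H2BC7 and H2BC5 may have been shared among them. The H2BC5 peak was weaker, at 3.49 in MOLM13 replicate 2 and 3.77 and 3.45 in THP1. MCOLN1, a calcium channel of the lysosome, had 4.38 in MOLM13 replicate 1 and 5.38 and 5.42 in THP1; only its last 12 bases could be read. CERT1, a ceramide transfer protein, had a GC-rich stretch of 72.7% G and C. Its peak had folds over input of 4.08 in MOLM13 replicate 1 and 4.05 in THP1 replicate 1, but lay below IgG, at −4.0 in MOLM13 and −2.81 in THP1. The CERT1 peak was absent from the second replicate of each line, whereas those of ALG11 and H2BC7 recurred in all 4 libraries.

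The files as a whole bear on these values in a few ways. The tables list 14432 and 14425 peaks in MOLM13 and 19325 and 18901 in THP1, out of 140287 to 182486 clusters per library, and the sources used here do not give read depth. Over all clusters, the median fold against IgG ran from −0.60 in MOLM13 replicate 2 to 0.38 in THP1 replicate 2, so the same IgG threshold is not equally hard to reach in every library. Clusters lay on 7 to 9 of 15 myeloid marker genes per library, with LYZ, CD33, SPI1 and CEBPA in all 4 and CD14, AZU1, PRTN3, FCGR1A and S100A8 at 0 in all 4. Of 5 lymphoid markers 0 or 1 had a cluster, and of 5 erythroid markers none had one.

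CDS peaks were a small share of each library, larger in MOLM13 than in THP1. They were 3.67% (95% Wilson interval 3.37 to 3.98) and 4.01% (3.71 to 4.35) of peaks in the MOLM13 replicates, and 3.03% (2.80 to 3.28) and 3.15% (2.91 to 3.41) in THP1. The mean was 3.84% ± 0.246 for MOLM13 and 3.09% ± 0.082 for THP1 (SD, n = 2 each). The lines did not overlap, with an exact two-sided permutation p of 0.333, which is the smallest that 2 against 2 libraries allows, and an adjusted p of 0.5 over 6 such comparisons. The 3′ UTR held 2914 and 3285 peaks in MOLM13 and 3113 and 3157 in THP1, and distal intron 8627 and 8240 in MOLM13 and 12560 and 12106 in THP1. CDS numbers thus differed less between lines than intron numbers did.

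CDS peaks fell on 415 and 423 genes in MOLM13 and 433 and 435 in THP1. A single peak was found on 347 and 329 of these genes in MOLM13 and on 344 and 347 in THP1. NNT and NES carried the most, with 7 NNT peaks in each THP1 replicate and 6 and 10 NES peaks there. In MOLM13, NES and PRELID1 each had 6 peaks in replicate 1 and 5 in replicate 2. The median peak was 73 bases wide in every library. Neighbouring peaks often abut, and merging them turned the CDS peaks into 474 and 489 stretches in MOLM13 and 500 and 509 in THP1, the longest 352 bases.

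A smaller share of CDS peaks than of 3′ UTR or distal intron peaks recurred in the other replicate. On the same strand, 1 base or more was shared with a peak of the other replicate by 358 and 397 CDS peaks in MOLM13 and by 431 and 431 in THP1. These are 67.7% and 68.6% of CDS peaks in MOLM13 and 73.5% and 72.4% in THP1, where peaks of any region reached 78.4% and 83.9% in MOLM13 against 81.8% and 85.1% in THP1. The 3′ UTR peaks reached 74.7% and 75.2% in MOLM13 against 76.3% and 77.7% in THP1. The CDS share was lower than the 3′ UTR share in 4 of 4 libraries, with a mean difference of −5.41 percentage points (SD 1.96). An exact two-sided sign-flip test over the 4 libraries gave p = 0.125, the smallest it can give, and 0.173 after adjustment over 18 tests. Distal intron peaks recurred at 80.5% and 88.5% in MOLM13 and at 83.7% and 88.1% in THP1, and the CDS share was lower in 4 of 4 libraries (mean difference −14.6 points, SD 4.19; exact p = 0.125, adjusted 0.173).

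The region label of a recurring peak was mostly the same in both replicates. Of the recurring CDS peaks, 344 and 369 in MOLM13 and 415 and 418 in THP1 met a CDS peak of the other replicate. The other 14 and 28 in MOLM13 and 16 and 13 in THP1 met only peaks with another label, a 3′ UTR peak in 6 and 20 cases in MOLM13 and in 2 and 3 in THP1. KLC2, a kinesin light chain, shows how the label moves with the ends of a peak. Its strongest peak was labelled CDS in MOLM13 replicate 1 and met 3′ UTR and CDS peaks in MOLM13 replicate 2. Where both replicates had a CDS peak, their folds went together over 412 pairs in MOLM13 (Pearson r = 0.68) and 480 in THP1 (r = 0.73). These r values describe peaks that share their libraries and, in THP1, may share 1 input. Within a pair, the log2 folds differed with an SD of 0.88 in MOLM13 and 0.91 in THP1, so differences of that size between replicates are ordinary.

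**Figure D1:**
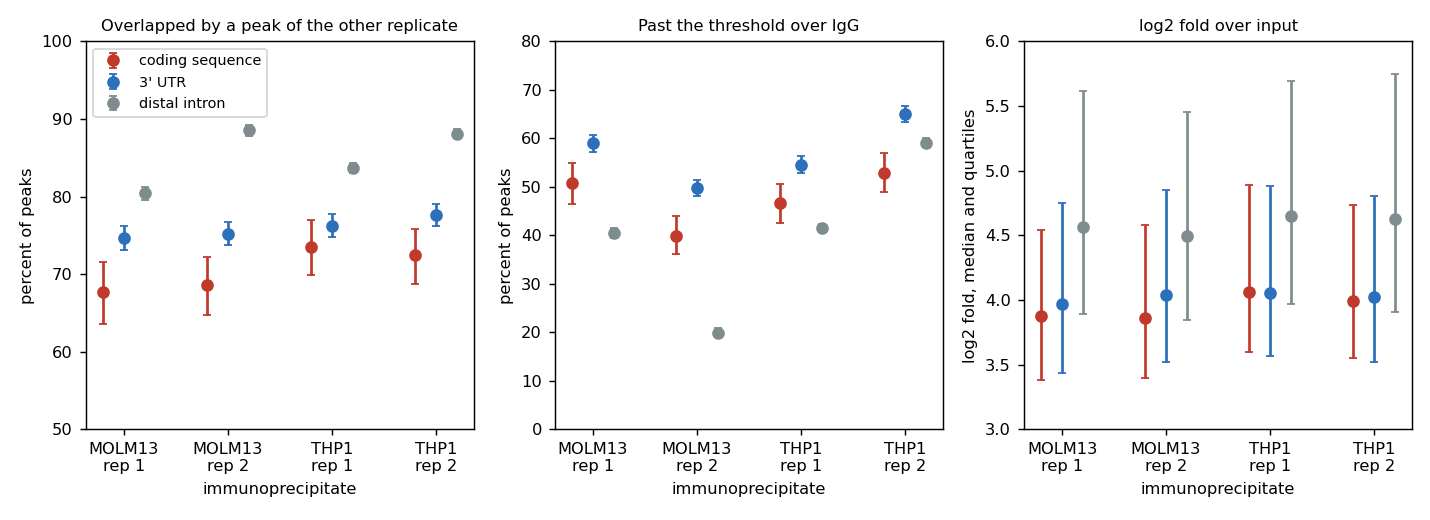
Share of peaks overlapped by the other replicate (left), share past the IgG threshold (middle) and log2 fold over input (right) for coding sequence, 3′ UTR and distal intron peaks in each immunoprecipitate. Bars are 95% Wilson intervals in the left and middle panels and quartiles on the right; CDS points lie below 3′ UTR points in every library of the left and middle panels, while on the right the CDS medians lie below the distal intron medians in every library.

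In fold over input, CDS peaks resembled 3′ UTR peaks and stood below intron peaks. The median CDS fold was 3.88 and 3.86 in MOLM13 and 4.06 and 3.99 in THP1. The 3′ UTR medians were 3.97 and 4.04 in MOLM13 against 4.05 and 4.02 in THP1, so the difference averaged −0.075 (SD 0.081) and was negative in 3 of 4 libraries (exact two-sided sign-flip p = 0.25, adjusted 0.321). Against distal intron the CDS median was lower in 4 of 4 libraries (mean difference −0.64, SD 0.038; exact p = 0.125, adjusted 0.173). Strong peaks were rare in coding sequence. A fold of at least 6 was reached by 28 and 30 CDS peaks in MOLM13 and 34 and 36 in THP1, or 5.29%, 5.18%, 5.80% and 6.05% in that order, against 16.1%, 14.1%, 17.3% and 17.7% of all peaks. The highest CDS fold was 8.06 and 8.97 in MOLM13 and 10.50 and 10.53 in THP1.

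The picture over IgG was different. The IgG list entry with identical coordinates passed a log2 fold and −log10 p of 3 for 268 of 528 and 231 of 578 CDS peaks in MOLM13, and for 273 of 586 and 314 of 593 in THP1. These shares were 50.8% and 40.0% in MOLM13 against 46.6% and 53.0% in THP1, where 45% and 28.1% of all peaks passed in MOLM13 and 43.2% and 59.1% in THP1. CDS peaks therefore passed more often than all peaks in 3 libraries and less often in THP1 replicate 2. Against 3′ UTR peaks, of which 59.0% and 49.7% passed in MOLM13 and 54.6% and 65.1% in THP1, the CDS share was lower in 4 of 4 libraries (mean difference −9.52 points, SD 1.92; exact p = 0.125, adjusted 0.173). Against distal intron peaks, of which 40.6% and 19.9% passed in MOLM13 and 41.5% and 59.1% in THP1, it was higher in 3 of 4 libraries, with a mean difference of 7.29 points (SD 10.9; exact p = 0.375, adjusted 0.422). Across the CDS peaks of a library, fold over input and fold over IgG had r of 0.47 and 0.43 in MOLM13 against 0.49 and 0.42 in THP1, and each pair of values shares the immunoprecipitate.

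A few CDS peaks were enriched over input yet depleted against IgG. A log2 fold over IgG under 0 was found for 10 and 19 CDS peaks in MOLM13 and 16 and 34 in THP1, or 1.89% and 3.29% in MOLM13 and 2.73% and 5.73% in THP1. Among 3′ UTR peaks the same share lay between 0.0344% and 0.305% in the 4 libraries, so CDS exceeded it in 4 of 4 (mean difference 3.19 points, SD 1.57; exact p = 0.125, adjusted 0.173). Over all peaks it was 0.236% and 1.17% in MOLM13 and 0.233% and 0.652% in THP1. The trait was not particular to CDS, since 5′ UTR peaks had it at 10.5% and 21.3% in MOLM13 and 12.2% and 33.3% in THP1, above the CDS share in each library. The 79 peaks fell on 29 genes, and 2 genes were among them in all 4 libraries. NES encodes the intermediate filament nestin, and VGF a secreted neuropeptide precursor. NES contributed 25 of the peaks and VGF 12, with 9 more on MT-ND6. Without these 3 genes, 5 of 516 and 9 of 568 CDS peaks were below IgG in MOLM13, and 5 of 575 and 14 of 573 in THP1.

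The VGF peak at chromosome 7, 101163479 to 101163766, had folds over input of 5.93 and 5.76 in MOLM13 against 5.57 and 7.08 in THP1. Its folds over IgG were −0.64 and −0.85 in MOLM13 against −2.31 and −1.78 in THP1. The strongest NES peak, at chromosome 1, 156669761 to 156670065, had 6.21 and 6.14 over input in MOLM13 against 5.25 and 6.23 in THP1, and 0.58 and −0.39 over IgG in MOLM13 and −1.71 and −1.64 in THP1. On both genes every peak in both MOLM13 replicates was in coding sequence. Both would rank among the 15 highest CDS sites by the input comparison alone, and neither passed the IgG threshold in any library. Which RNA or protein property goes with a signal that is also present in IgG was not tested.

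**Figure D2:**
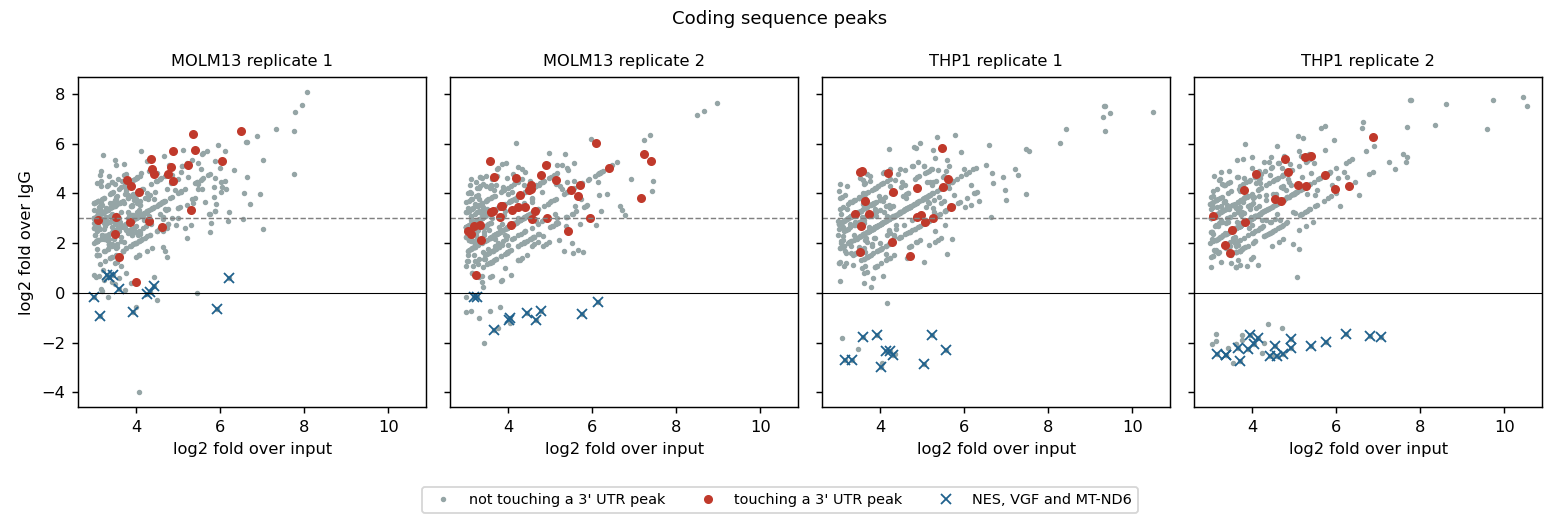
Log2 fold over IgG (vertical) against log2 fold over input (horizontal) for each CDS peak in the 4 immunoprecipitates, with peaks that touch a 3′ UTR peak of the same gene in red and peaks of NES, VGF and MT-ND6 as blue crosses. The dashed line is the IgG threshold of 3; the crosses lie near or below 0 over IgG, and most red points lie above the threshold.

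The mitochondrial mRNAs gave 44 of the CDS peaks, all on subunits of respiratory complex I (MT-ND1, MT-ND2, MT-ND3, MT-ND4 and MT-ND6). Only 3 of them, all on MT-ND2, passed the IgG threshold. MT-ND6, the one gene of these encoded on the other strand, had folds over IgG from −2.70 to 0.72 in its 12 peaks.

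Few CDS peaks touched a 3′ UTR peak. Peaks within a table do not overlap, so a touch means that a CDS peak directly abuts a 3′ UTR peak of the same gene. This was so for 24 and 38 CDS peaks in MOLM13 and 20 and 20 in THP1, or 4.54% and 6.56% in MOLM13 and 3.41% and 3.36% in THP1. Among peaks that are neither CDS nor 3′ UTR the share was 0.2% and 0.284% in MOLM13 and 0.166% and 0.112% in THP1. The labels largely set this contrast in advance, since coding sequence adjoins the 3′ UTR and most of those peaks are intronic. Within 500 bases of a 3′ UTR peak there were 41 and 61 CDS peaks in MOLM13 and 39 and 39 in THP1. More CDS peaks abutted another CDS peak, 95 and 165 in MOLM13 against 154 and 149 in THP1, and 394 and 355 in MOLM13 and 393 and 423 in THP1 abutted none.

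The touching peaks had higher values than the rest of the CDS peaks in every library. Their median fold over input was 4.41 and 4.45 in MOLM13 and 4.51 and 4.82 in THP1, against 3.85 and 3.84 in MOLM13 and 4.05 and 3.96 in THP1 for CDS peaks that touched none. They passed the IgG threshold in 17 of 24 and 27 of 38 cases in MOLM13 and in 15 of 20 and 14 of 19 in THP1, or 70.8%, 71.1%, 75.0% and 73.7%. The peaks that touched none passed in 49.8% and 37.8% of cases in MOLM13 against 45.6% and 52.3% in THP1. No touching peak was below IgG in any library. With 19 to 38 touching peaks per library the Wilson intervals are wide, from 50.8% to 85.1% in MOLM13 replicate 1, and the difference was not tested.

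Genes whose CDS peak touched a 3′ UTR peak in both replicates numbered 16 in MOLM13 and 13 in THP1. Pairs of overlapping peaks at such junctions were ranked where at least 1 replicate carried the CDS label, and the highest in MOLM13 were on CYTH2, an exchange factor for ARF GTPases, ATP6V0B, a subunit of the vacuolar proton pump, BRIX1, a ribosome assembly factor, FARSA, a subunit of phenylalanyl-tRNA synthetase, and the adhesion molecule ICAM5; apart from FARSA, these pairs were labelled CDS in 1 replicate and 3′ UTR in the other. In THP1 they were labelled CDS in both replicates and lay on HYOU1, a chaperone of the endoplasmic reticulum, CCT2, POMGNT1, FARSA and HSPA9. FARSA, the only name in both sets of 5, had folds of 6.04 and 6.10 in MOLM13 and 5.49 and 5.25 in THP1. Over IgG it had 5.30 and 6.03 in MOLM13 against 4.25 and 5.47 in THP1, so every FARSA value was past both thresholds.

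CDS peaks lay towards the 3′ end of genes, though their median fell short of it. Along the RefSeq gene span the median CDS peak lay at 70.1% and 73.4% of the way in MOLM13 and 66.1% and 67.8% in THP1. The median 3′ UTR peak lay at 97.2% and 96.9% in MOLM13 against 96.8% and 96.9% in THP1, and the median distal intron peak at 37.9% and 38.2% in MOLM13 and 38.6% and 38.6% in THP1. The last 2000 bases of the gene span held 22.1% and 23.6% of CDS peaks in MOLM13 and 18.6% and 18.5% in THP1. The mean difference from the 3′ UTR was −43.7 points and that from distal intron 20.2 points, each with 1 sign in 4 of 4 libraries. The region labels largely set this order in advance, since a 3′ UTR lies at the end of a transcript. The exact sign-flip p of 0.125 (adjusted 0.173) for each difference therefore says nothing about binding. Introns count towards the span, so these figures place a peak in the gene and not in the spliced mRNA.

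**Figure D3:**
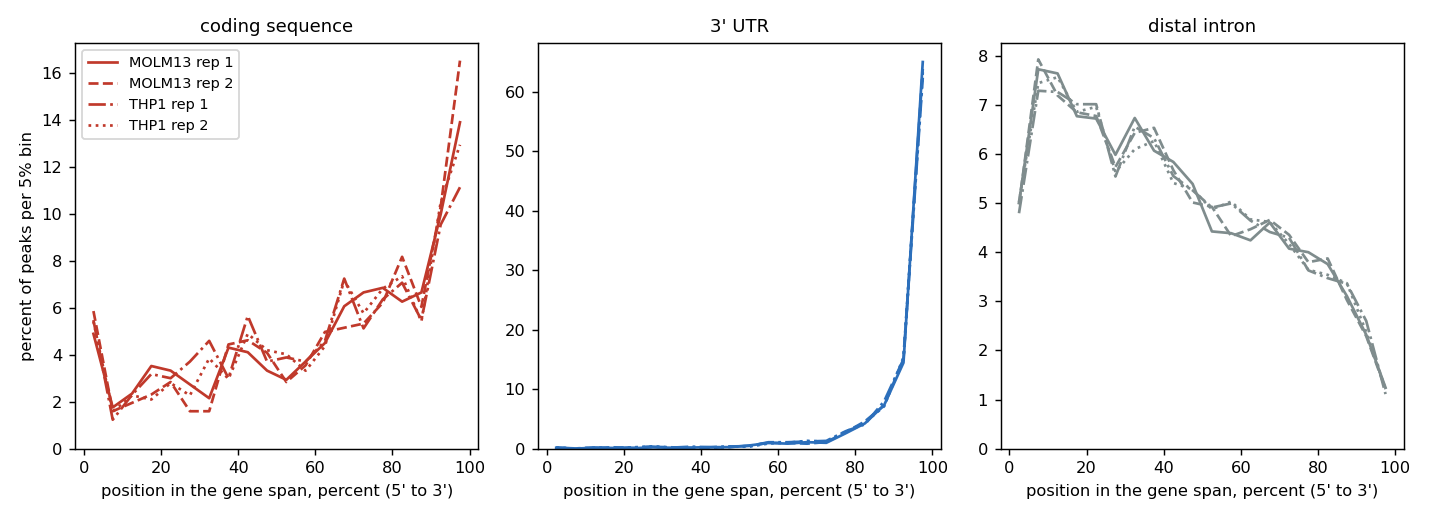
Position of peak centres along the RefSeq gene span from the 5′ to the 3′ end, as the percent of peaks in each 5% bin, for coding sequence, 3′ UTR and distal intron peaks; each line is 1 immunoprecipitate and the vertical scales differ. The CDS lines are highest in the last bin, as are the steeper 3′ UTR lines, while the distal intron lines are lowest there.

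Joined over the libraries, the CDS peaks formed 953 sites on 766 genes. A site was seen in 1 library in 420 cases, in 2 in 215, in 3 in 129 and in all 4 in 189. The single-library sites had a median highest fold of 3.64, and the sites in all 4 one of 5.36, though the highest of 4 values tends to exceed a single one. Both MOLM13 replicates held 295 sites and both THP1 replicates 339, so that the 189 shared sites are 64.1% of the MOLM13 set and 55.8% of the THP1 set. These 189 lay on 169 genes. In all 4 libraries 82 of them (43.4%) passed the IgG threshold, and 16 passed it in none. The matching shares over sites of all regions are not given here, so these site figures describe coding sequence without setting it apart.

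The highest site shared by all 4 libraries was on NNT, the mitochondrial transhydrogenase that makes NADPH. At chromosome 5, 43700124 to 43700204, its folds were 8.06 and 8.97 in MOLM13 against 10.50 and 8.61 in THP1. Over IgG the NNT site had 8.07 and 7.62 in MOLM13 against 7.26 and 7.60 in THP1, and its lowest value over IgG was above that of any other shared CDS site. A second NNT site, at chromosome 5, 43618983 to 43619133, had 7.03 and 6.15 in MOLM13 against 7.47 and 7.69 in THP1. NNT had a 3′ UTR peak only in MOLM13 replicate 1, at 3.44, and in THP1 replicate 2, at 4.90, so its strongest signal was labelled coding in all 4 libraries. The label is the authors' and may rest on any annotated transcript; coding coordinates of single transcripts were not used here.

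**Figure D4:**
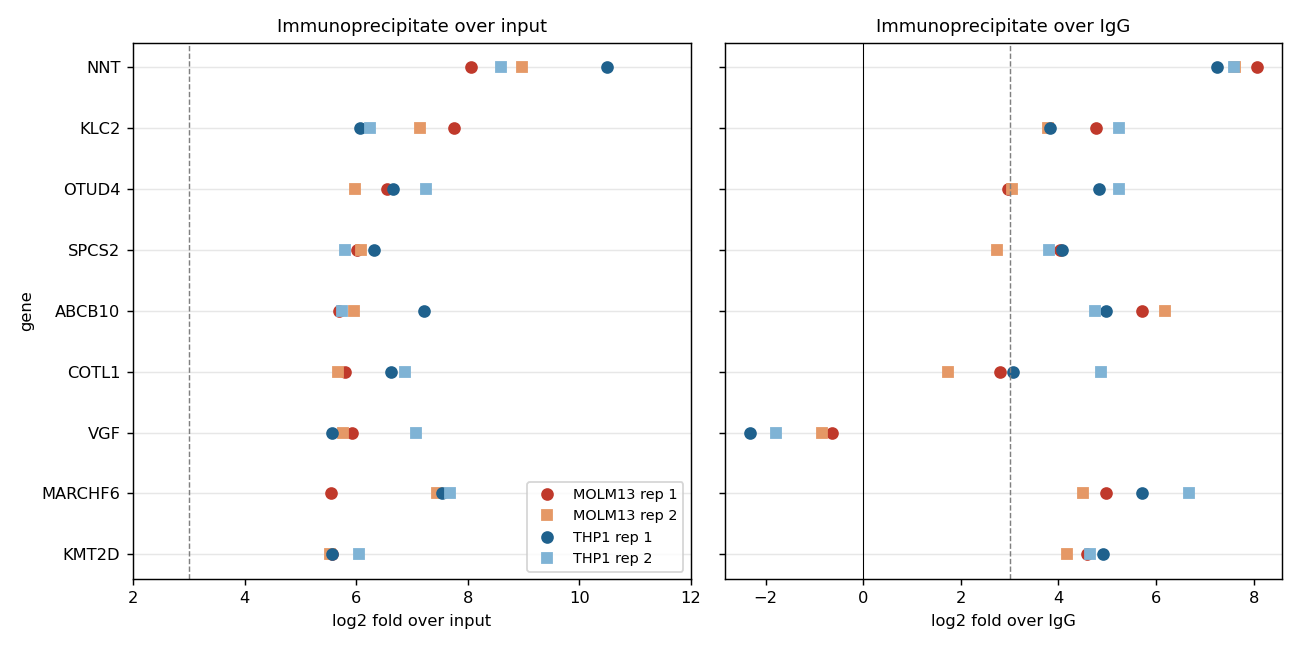
Log2 fold over input (left) and over IgG (right) in each immunoprecipitate for 9 of the 10 genes with the highest CDS site found in all 4, ordered by the lowest of the 4 folds over input. The dashed line marks 3; of the genes drawn, NNT lies highest in both panels, and VGF lies below 0 over IgG in all 4 libraries.

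The 10 highest genes also held KLC2, OTUD4, SPCS2, ABCB10, COTL1, VGF, MARCHF6 and KMT2D, in the order of their lowest fold over input. MARCHF6, a ubiquitin ligase of the endoplasmic reticulum that degrades enzymes of sterol synthesis, had 5.55 and 7.45 in MOLM13 against 7.53 and 7.68 in THP1. Over IgG the MARCHF6 site had 4.98 and 4.51 in MOLM13 against 5.70 and 6.68 in THP1. ABCB10, a transporter of the inner mitochondrial membrane, had 5.69 and 5.97 in MOLM13 against 7.22 and 5.75 in THP1, and passed IgG in all 4 with 5.71, 6.20, 4.97 and 4.74. KMT2D, a histone H3 lysine 4 methyltransferase, had 5.57 and 5.54 in MOLM13 against 5.57 and 6.06 in THP1. SPCS2, a subunit of the signal peptidase, had 6.02 and 6.10 in MOLM13 against 6.32 and 5.81 in THP1, and missed an IgG fold of 3 in MOLM13 replicate 2 at 2.74. OTUD4, a deubiquitinase, and COTL1, an actin-binding protein, also missed an IgG fold of 3 in MOLM13, OTUD4 in replicate 1 at 2.98 and COTL1 in both at 2.81 and 1.73.

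Ranked by the lowest fold over IgG instead, the 10 leading genes held NNT, ATP5F1B, ABCB10, EIF3E, PCGF1, ITPR1, MARCHF6, LBR and TCF12. ATP5F1B, the catalytic beta subunit of mitochondrial ATP synthase, had folds over IgG of 4.75 and 5.13 in MOLM13 and 5.13 and 6.22 in THP1. TCF12, a basic helix-loop-helix transcription factor, carried a pair of shared sites, and the one nearer the 3′ end had 5.49 and 4.49 in MOLM13 against 5.84 and 5.36 in THP1 over IgG. LBR, a sterol reductase and lamin receptor of the inner nuclear membrane, had 5.10 and 4.50 in MOLM13 against 5.12 and 5.20 in THP1. At the ranked site each of these genes was past the IgG threshold in every library, which follows largely from the ranking. Their other shared sites passed it in all 4 libraries on NNT, MARCHF6 and TCF12. Those of ATP5F1B and LBR passed it in only 2 libraries each.

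Between lines, CDS peaks recurred less often than peaks in general when counted from MOLM13. Recurring peaks of both replicates of a line were pooled for this count. The same site usually counts from each replicate, so the Wilson intervals given here are too narrow. Of 755 CDS peaks that recurred within MOLM13, 543 (71.9%, Wilson 68.6 to 75.0) overlapped a recurring THP1 peak of any region, where the share for all peaks was 82.9%. Of 862 in THP1, 535 (62.1%, Wilson 58.8 to 65.2) overlapped a recurring MOLM13 peak, where the share for all peaks was 65.3%. The 3′ UTR peaks recurred in the other line in 74.1% of cases from MOLM13 and 68.9% from THP1.

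At the 189 shared CDS sites the 2 MOLM13 folds lay above both THP1 folds in 32 cases (16.9%), where 12.1% of all peaks found in all 4 did so. Both THP1 folds lay above both MOLM13 folds in 56 (29.6%), against 36.2% of all such peaks. THP1 was more often the higher line at CDS sites, as among all peaks. Folds of the lines come from separate comparisons, and no difference of folds at single sites was tested.

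The 2 sites with the largest mean difference between lines in each direction are given here, chosen after their values were seen. IGF2R, the receptor that sorts lysosomal enzymes, had 3.54 and 3.10 in MOLM13 against 5.91 and 5.13 in THP1 at chromosome 6, 160089908 to 160090020. LARS1, the cytoplasmic leucyl-tRNA synthetase, had 3.71 and 3.67 in MOLM13 against 4.94 and 6.63 in THP1. In the other direction, DOCK5, an exchange factor for RAC GTPases, had 7.01 and 5.37 in MOLM13 against 4.67 and 4.33 in THP1. PCGF1, a Polycomb group RING finger protein, had 4.57 and 6.19 in MOLM13 against 3.52 and 4.17 in THP1. The same PCGF1 site was level over IgG, at 4.58 and 4.84 in MOLM13 and 4.60 and 4.75 in THP1. IGF2R also lost its order over IgG, with 3.88 and 4.33 in MOLM13 against 3.67 and 4.13 in THP1. At both sites the line difference thus depended on the control the fold was taken against. Values over IgG of LARS1 and DOCK5 are not given here, so nothing is said of their dependence on the control.

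A few genes with a recurring CDS peak had no peak of any region in the other line. They numbered 23 of 302 genes in MOLM13 and 25 of 325 in THP1. The same share over genes with a recurring peak of any region is not given here, so these counts show nothing particular to coding sequence. CD180, a toll-like receptor homologue of B cells and myeloid cells, was the highest in MOLM13 with 5.87 and 5.63, and 3.30 and 3.27 over IgG. It was followed by PRELID1, a mitochondrial lipid carrier, with 5.44 and 5.38. SLAIN1, a microtubule-binding protein, was the highest in THP1 with a CDS peak at 7.29 and 6.54, and FLVCR1, a choline and haem transporter, had 4.68 and 4.93. RNA levels of these genes in the lines were not measured here, so presence of the mRNA and binding of it cannot be told apart.

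By gene, a CDS peak over input in both replicates was uncommon. A gene counted as a target of a line when both replicates had a peak of any region with its name. Of 4291 targets in MOLM13, 271 (6.32%) had a CDS peak in both replicates, and of 5012 in THP1, 307 (6.13%). The lines shared 178 of these genes, 65.7% of the MOLM13 set and 58.0% of the THP1 set, where 87.2% of all MOLM13 targets and 74.6% of all THP1 targets were shared. Coding peaks were the only peaks of the gene in 83 MOLM13 genes and 77 THP1 genes, TDRD7 and TRAPPC3 leading in MOLM13 with NES, VGF and CD180, and KLC2, HBS1L, CKB and BTBD6 leading in THP1 with VGF. TDRD7, a Tudor protein of RNA granules, had 6.03 and 6.60 in MOLM13, with 4.46 and 5.25 over IgG.

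Most genes with a CDS peak had no 3′ UTR peak beside it. A 3′ UTR peak in both replicates was present in 62 of the 271 MOLM13 genes (22.9%) and 75 of the 307 THP1 genes (24.4%). Among targets without a CDS peak in both replicates the share was 34.1% in MOLM13 and 30.5% in THP1. No 3′ UTR peak in either replicate was found for 164 MOLM13 genes and 184 THP1 genes. An intron peak in both replicates was present in 119 MOLM13 genes and 152 THP1 genes. For these last counts the matching shares over other targets are not given here, so they show nothing particular to coding sequence.

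Where a gene had both, neither region was regularly the stronger in THP1. In MOLM13 the CDS peak was higher in both replicates for 12 of 62 genes, the 3′ UTR peak for 30, and 20 were mixed. In THP1 each outcome was found for 25 of 75 genes. The median CDS minus 3′ UTR difference was −0.53 and −0.42 in MOLM13 and −0.033 and 0.026 in THP1. MARCHF6 had the higher coding peaks in both lines, at 5.89 and 7.45 against 4.23 and 3.80 in the 3′ UTR in MOLM13, and 7.53 and 7.68 against 4.61 and 4.01 in THP1. KPNB1, the nuclear import receptor importin beta, had 6.57 and 5.87 against 3.92 and 3.21 in MOLM13. At the other end, RHOT1, a mitochondrial GTPase, had coding peaks of 3.64 and 3.40 against 7.10 and 6.96 in the 3′ UTR in MOLM13. DNAJC16, a J-domain protein, had 3.73 and 3.84 against 7.54 and 7.93 in THP1. These genes were chosen for large differences after their values were seen.

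**Figure D5:**
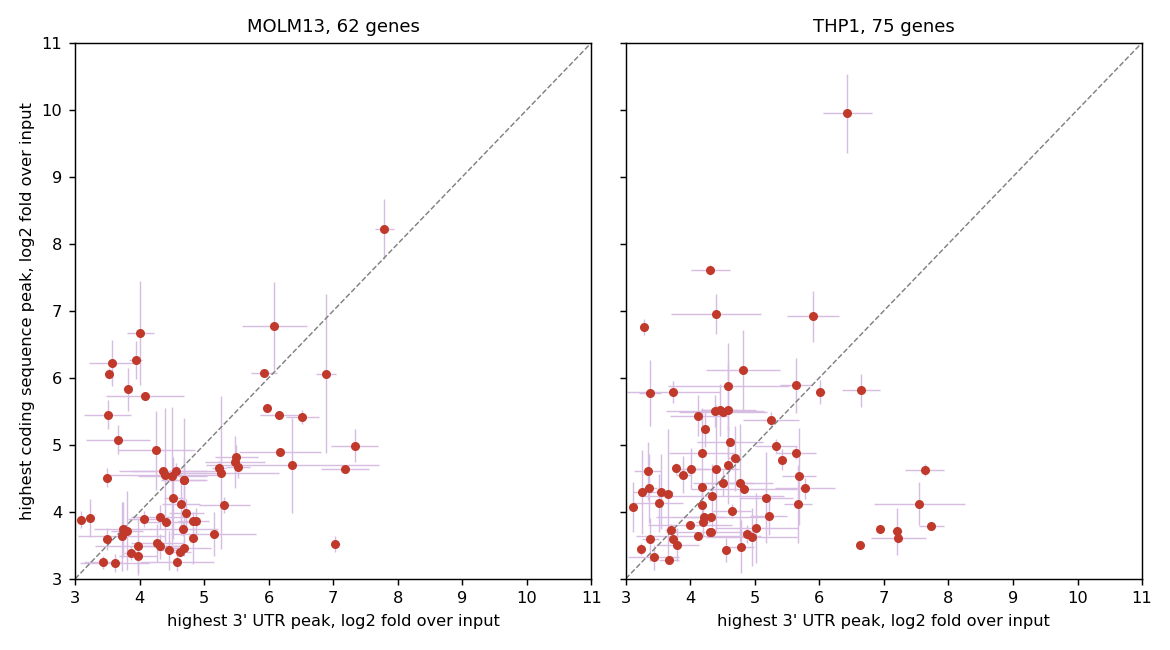
Log2 fold over input of the highest CDS peak (vertical) against the highest 3′ UTR peak (horizontal) of each gene with both in both replicates, 62 genes in MOLM13 and 75 in THP1. Points are means and bars run to the values of the 2 replicates; the dashed line marks equal folds, with 12 of 62 genes above it in both MOLM13 replicates and 25 of 75 in both THP1 replicates.

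The share of targets with a coding peak in both replicates was also counted by gene group, without a test, beside the 6.32% of MOLM13 targets and 6.13% of THP1 targets given above. Chaperones stood highest among groups of 10 or more targets, with 5 of 11 in MOLM13 and the same 5 of 10 in THP1. These were the cytosolic HSP90AB1, its endoplasmic reticulum relative HSP90B1, the mitochondrial HSPA9, and the chaperonin subunits CCT2 and TCP1. HSP90AB1 had 4.50 and 4.73 in MOLM13 against 5.63 and 5.94 in THP1 at its shared site, with 4.81 and 4.34 over IgG in MOLM13 and 5.09 and 6.16 in THP1. CCT2 had 4.76 and 4.55 in MOLM13 against 5.47 and 6.30 in THP1, HSPA9 had 4.12 and 4.54 in MOLM13 against 4.87 and 5.09 in THP1, and TCP1 had 4.35 and 5.13 in MOLM13 against 4.17 and 3.71 in THP1. HSP90B1 had 4.30 and 3.04 in MOLM13 against 4.65 and 4.09 in THP1. These CCT2 peaks abutted a 3′ UTR peak in both lines, as did those of HSPA9 in THP1 and TCP1 in MOLM13 replicate 1. The HSP90AB1 peaks did not. A 3′ UTR peak in both replicates was found for 5 of the 11 chaperones in MOLM13 and 5 of the 10 in THP1. Over all targets it was found for 1432 of 4291 in MOLM13 and 1512 of 5012 in THP1. Histones had 3 of 6 in MOLM13 (H2AC4, H2BC7 and H4C5) and 2 of 4 in THP1 (H2BC5 and H2BC7).

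Factors of mRNA decay had 2 of 24 in MOLM13 and 6 of 27 in THP1. AGO3, an Argonaute protein, was at 5.06 and 5.79 in MOLM13 against 5.51 and 6.46 in THP1. CNOT1, the scaffold of the deadenylase complex that TIS11 proteins recruit, had a coding peak in 3 libraries, at 3.86 in MOLM13 replicate 2 and 4.11 and 3.90 in THP1. Chromatin regulators had 2 of 39 in MOLM13 (KMT2D and SETD1A) and 6 of 40 in THP1. Myeloid transcription factors had 2 of 14 in MOLM13 (JUND and STAT5B) and 2 of 17 in THP1 (JUND and KLF2).

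Of reported ZFP36-family targets, all 18 in MOLM13 and all 19 in THP1 had a 3′ UTR peak in both replicates. The TIS11 family itself had 0 of 2 members with a coding peak in MOLM13 and 0 of 3 in THP1, with a 3′ UTR peak in all of them. Over all targets, 1432 of 4291 in MOLM13 and 1512 of 5012 in THP1 had a 3′ UTR peak in both replicates. Both lists were chosen with earlier results of these data known, so their 3′ UTR counts are not a test. Other regulators of AU-rich mRNAs had 0 of 10 in MOLM13 and 0 of 11 in THP1, ribosomal proteins 0 of 11 in MOLM13 and 0 of 9 in THP1, and the HOXA programme 0 of 5 in MOLM13 and 0 of 4 in THP1. Cell cycle regulators had 0 of 25 in MOLM13 and 1 of 19 in THP1, MDM2. Zinc finger ZNF genes, many with long coding exons, had 2 of 85 in MOLM13 and 3 of 144 in THP1. Translation factors had 1 of 16 in MOLM13 and 2 of 14 in THP1, and splicing factors 1 of 17 in each line. Cytoskeletal genes had 0 of 13 in MOLM13 and 3 of 14 in THP1, and myeloid granule and surface genes 0 of 2 in MOLM13 and 1 of 4 in THP1. Lymphoid markers had 0 of 1 in each line, and erythroid markers 0 of 2 in MOLM13 and 0 of 1 in THP1.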

How the data were processed

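The series holds 11 eCLIP libraries of MOLM13 and THP1. Among the tools in the submitters' processing notes are STAR 2.5.0c, cutadapt 1.14, edgeR and Picard 2.6.0, and the builds named are hg38, hg19 and GRCh37, all without their roles. The sources used here do not give the peak caller or read depth. The 4 deposited input tables give, per immunoprecipitate, the authors' log2 fold and −log10 p over input, gene and region for peaks past 3 in both. The 4 deposited IgG lists give the authors' log2 fold and −log10 p over IgG for every cluster, with −log10 p capped at 400. Per-peak values are the authors' and were used to describe and rank within a list. Whether both THP1 tables rest on the 1 THP1 input library is not stated.

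CDS peaks were matched to the IgG list by identical coordinates (4 peaks had no match). Peaks were intersected by strand with Python 3.11.15, pandas 2.3.3, numpy 2.4.6 and scipy 1.17.1, tested on simulated intervals. Sites join overlapping CDS peaks of the same gene. Of 766 gene names, 726 matched a RefSeq GRCh38.p14 symbol and 22 a synonym, and 96.6% of CDS peaks lay inside the named gene. Current symbols are printed. Wilson intervals at 95% cover counting error only. Shares were compared by exact sign-flip tests within libraries and exact permutation between lines, with Benjamini-Hochberg adjustment. Named genes were the leading 10 per line and over all 4 libraries by the lower fold, the leading 10 over IgG, the leading 5 that touch a 3′ UTR peak, that have coding peaks only, that lack a peak in the other line or that hold the most peaks, and up to 3 per gene list; 18 lists were used. Some named results are not reported here. Members and lists were chosen with earlier results of these data known. Motifs could not be searched in most peaks, since no genome was used here.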

Additional observations from a re-analysis of the deposited data

How the results depend on the processing

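Under other settings 29 values moved and 30 did not, judged by the spread between replicates or the Wilson interval for shares, by ratio for gene counts and by sign for differences. The CDS share of peaks, 3.84% in MOLM13 and 3.09% in THP1, became 2.66% and 2.32% at a log2 fold of at least 4 and 4.31% and 3.48% with touching peaks merged; among peaks past the IgG threshold it was 4.93% in MOLM13, and at a −log10 p of at least 5 it was 3.17% in THP1. The overlap between replicates, 68.1% in MOLM13 and 73.0% in THP1, became 63.3% and 70.4% where at least 50% of the peak had to be covered, 64.4% and 70.5% against CDS peaks only, and 62.2% and 65.3% at a fold of at least 4. The share touching a 3′ UTR peak, 5.55% in MOLM13 and 3.39% in THP1, was 0% in each by a shared base and 9.14% and 6.60% within 500 bases; in THP1 it was 3.89% within 50 bases and 3.98% along chains of abutting peaks. The share past IgG, 45.4% in MOLM13 and 49.8% in THP1, was 22.5% and 24.8% at an IgG fold of at least 4 and 60.9% and 60.9% at 1. Genes with a CDS peak in both replicates, 271 in MOLM13 and 307 in THP1, numbered 113 and 141 at a fold of at least 4 and 118 and 148 past IgG, both chosen after seeing the data. The cause was not tested beyond the settings themselves. CDS minus 3′ UTR kept its negative sign for fold, replicate overlap and IgG share in each alternative run.

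Leaving out a replicate gave a CDS share of 3.67% to 4.01% in MOLM13 and 3.03% to 3.15% in THP1, a touching share of 4.54% to 6.56% and 3.36% to 3.41%, and an IgG share of 40.0% to 50.8% and 46.6% to 53.0%. The line overlap was then 63.7% to 66.0% of the MOLM13 list and 58.5% to 61.4% of the THP1 list. The mean CDS minus 3′ UTR difference was −0.109 to −0.042 in log2 fold, −10.9 to −8.09 points in IgG share and −5.94 to −4.87 points in replicate overlap. No paired analysis was possible because each value comes from the authors' comparison of 1 immunoprecipitate with its control and from no test across replicates. The share of peaks with an AU-rich pentamer was not run. Depth per library is unknown, so a missing peak may be missing coverage.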
